A study of Mus musculus with 12 samples.

Results

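The 10 genes described here carry most of the route from blood glucose to lactate: the glucose transporter Slc2a1, the hexokinases Hk1 and Hk2, the isomerase Gpi1, the phosphofructokinase subunits Pfkl and Pfkp, the aldolase Aldoa, the phosphoglycerate kinase Pgk1, the pyruvate kinase Pkm and the lactate dehydrogenase subunit Ldha. They are a list taken by mouse symbol, chosen with earlier results of these data known. Each of the 10 was listed in both gene tables of the series. These held 30803 Ensembl identifiers for GSH and WT and 17558 symbols for Cas9 and Ctrl. All 10 passed a mean of 1 FPKM (reads scaled to transcript length and library total) in both tables, beside 12283 genes in all that did so for GSH and WT and 11407 for Cas9 and Ctrl.

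By their labels all samples are 4T1, a line of mouse mammary carcinoma cells from the BALB/c strain, grown in DMEM with serum. The 4 groups differ by a genotype named GSH, WT, Cas9 or Ctrl, and share the cell line and the label of a culture. The labels do not expand GSH, do not name any gene targeted with Cas9 and do not say whether a group is 1 clone. Messenger RNA of 3 GSH, 3 WT, 3 Cas9 and 1 Ctrl library (Ctrl 3) was analysed, and 2 further Ctrl samples were not analysed here.

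Glycolysis splits glucose into pyruvate in the cytosol and yields ATP and NADH without oxygen. Glucose enters through facilitative transporters, is trapped by hexokinase, and is committed to the pathway by phosphofructokinase, whose activity follows the energy state of the cell. Many carcinomas convert much of their pyruvate to lactate even where oxygen is present, which regenerates NAD+ through lactate dehydrogenase. Transcription of many glycolytic genes is known to be raised by the hypoxia-inducible factor and by Myc.

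Library totals behind the FPKM values, recovered from the steps of the values, were 18531444 to 30168737 reads in the GSH and WT libraries and 33152215 to 39201544 in the Cas9 and Ctrl libraries. Keratins and Epcam marked the carcinoma epithelium in both tables, with summed values of 1549 to 1609 FPKM in GSH, 1470 to 1545 in WT, 1563 to 2640 in Cas9 and 2071 in Ctrl 3. Leukocyte markers (3 genes) summed to 0.691 to 1.41 FPKM in GSH and 0.518 to 0.881 in WT, against 137 to 266 FPKM in Cas9 and 234 in Ctrl 3, so the Cas9 and Ctrl libraries go against a label of cultured carcinoma cells alone. Of the 6 GSH and WT libraries, 3 stood apart by transcripts of secretory glands, which also go against that label. These summed to 434 FPKM in GSH 2, 154 in GSH 3 and 323 in WT 3, against 1.46 in GSH 1, 1.60 in WT 1 and 6.32 in WT 2.

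In GSH libraries, transcripts of most of the 10 genes, from the hexokinases to lactate dehydrogenase, were higher than in WT libraries, while the glucose transporter Slc2a1 was not called. Of the 10 genes, 7 passed the test and were higher in GSH (Hk1, Hk2, Pfkl, Aldoa, Pgk1, Pkm and Ldha), by 22.3% to 33.8% of their mean FPKM. None was lower, and Slc2a1, Gpi1 and Pfkp did not pass. Among all 12283 genes tested with limma at an adjusted p of 0.05, 37% were called, 20.6% higher in GSH and 16.4% lower. An unadjusted p of 0.05 was passed by 8 of the 10 genes, the 7 and Gpi1, and by 47.9% of all genes. The median log2 change was 0.30 for the 10 genes and 0.02 for all genes tested. In 9 of the 10 genes every GSH library lay above every WT library, which 29% of all tested genes did. Together the 10 genes took 0.847%, 0.897% and 0.861% of the reads in GSH libraries, against 0.669%, 0.692% and 0.713% in WT 1 to 3.

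**Figure D1:**
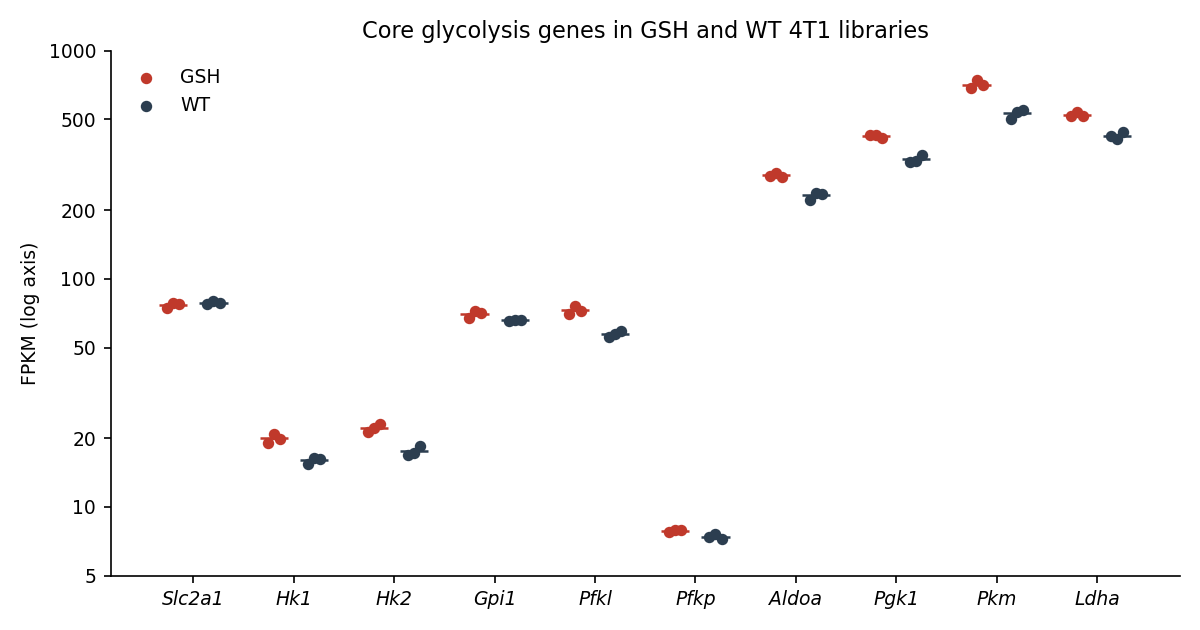
FPKM of the 10 glycolysis genes in each of the 3 GSH and 3 WT libraries, with group means. GSH and WT libraries overlap for Slc2a1 alone, and Pkm shows the largest difference of the 10 in FPKM, at 683 to 741 in GSH and 503 to 553 in WT.

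Slc2a1 encodes GLUT1, the transporter through which most cancer cells take up glucose (ENSMUSG00000028645). It had 74.9, 78.7 and 77.4 FPKM in GSH 1 to 3, against 77.5, 79.6 and 78.8 FPKM in WT 1 to 3. The ranges overlapped, and the means of 77.0 ± 1.94 and 78.6 ± 1.05 FPKM in GSH and WT (SD, n = 3 each) gave a log2 change of -0.03 with a 95% interval of -0.10 to 0.04 (limma adjusted p = 0.45). The gene lay above 97.7% of the genes with a value above 0 in each of the 6 libraries. The other facilitative transporter of the list with a high affinity for glucose, Slc2a3, made up 0.249 ± 0.0562% of the summed FPKM of the pair in GSH and 0.214 ± 0.0241% in WT (SD, n = 3 each).

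Hexokinase phosphorylates glucose and so keeps it in the cell. Hk1, the form found in most tissues (ENSMUSG00000037012), had 19.1, 21.0 and 19.9 FPKM in GSH 1 to 3, against 15.4, 16.4 and 16.3 in WT 1 to 3. Hk2, the form of muscle and of many tumours, which binds mitochondria (ENSMUSG00000000628), had 21.3, 22.3 and 23.1 FPKM in GSH and 17.0, 17.2 and 18.6 in WT. No GSH library overlapped a WT library for either gene. The log2 change was 0.30 for Hk1 (SE 0.04, limma adjusted p = 0.00395) and 0.32 for Hk2 (SE 0.05, limma adjusted p = 0.00388), so both isozymes were higher. Hk2 made up 52.7 ± 1.15% of the summed FPKM of Hk1 and Hk2 in GSH and 52.3 ± 1.08% in WT (SD, n = 3 each). An exact two-sided permutation test of this share gave p = 0.7. The share rests on the lengths used, 8532 bases for Hk1 and 5969 for Hk2. In recovered reads the Hk2 share was 43.8% in GSH and 43.4% in WT. Hk3, the hexokinase of leukocytes, was at 0.0144 to 0.0270 FPKM in GSH and 0 to 0.0495 FPKM in WT.

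Gpi1, glucose-6-phosphate isomerase, turns glucose-6-phosphate into fructose-6-phosphate (ENSMUSG00000036427). It had 67.3, 72.0 and 70.5 FPKM in GSH 1 to 3, against 65.4, 66.3 and 66.1 in WT 1 to 3. The 3 GSH libraries lay above the 3 WT libraries, but the log2 change of 0.08 did not pass (SE 0.03, limma adjusted p = 0.0817). Without GSH 1 it was 0.11 and passed (limma adjusted p = 0.0333).

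Phosphofructokinase commits fructose-6-phosphate to glycolysis as a tetramer of the liver (Pfkl), platelet (Pfkp) and muscle (Pfkm) subunits. Pfkl (ENSMUSG00000020277) had 70.4, 76.2 and 72.1 FPKM in GSH 1 to 3, against 55.4, 57.6 and 59.0 in WT 1 to 3, a log2 change of 0.34 (SE 0.04, limma adjusted p = 0.00243). Pfkp (ENSMUSG00000021196) had 7.73, 7.91 and 7.90 FPKM in GSH and 7.35, 7.64 and 7.21 in WT. Its libraries did not overlap between the groups either, but the log2 change of 0.08 did not pass (95% interval -0.00 to 0.15, limma adjusted p = 0.112). Pfkm averaged 12.9 ± 0.510 FPKM in GSH and 13.0 ± 0.860 in WT (SD, n = 3 each), with a log2 change of -0.01 (limma adjusted p = 0.85). Of the 3 subunits only Pfkl was called. Pfkp made up 9.90%, 9.41% and 9.87% of the summed FPKM of Pfkl and Pfkp in GSH 1 to 3, against 11.7%, 11.7% and 10.9% in WT 1 to 3, lower by 1.71 percentage points in GSH. Every GSH library lay below every WT library for this share, and the exact two-sided permutation test gave p = 0.1, the smallest that 3 against 3 allows (0.2 when adjusted over the Hk2 and Pfkp shares).

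**Figure D2:**
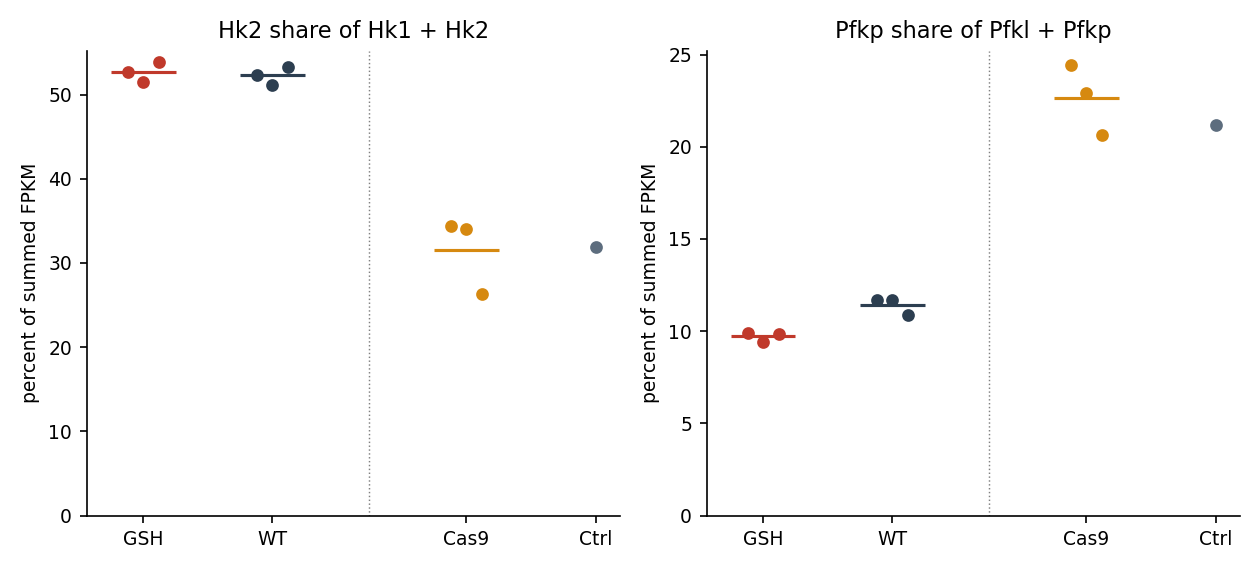
Share of Hk2 in the summed FPKM of Hk1 and Hk2 and share of Pfkp in that of Pfkl and Pfkp, in percent, for each library. The Cas9 and Ctrl shares rest on other gene lengths and cannot be set against those of GSH and WT. The Hk2 share overlaps between GSH and WT at 51.1% to 53.8%, and the Pfkp share lies at 9.41% to 9.90% in GSH, below 10.9% to 11.7% in WT.

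Aldoa splits fructose-1,6-bisphosphate into the triose phosphates. Its identifier ENSMUSG00000030695 had 283, 290 and 279 FPKM in GSH 1 to 3, against 222, 239 and 235 in WT 1 to 3. The groups lay well apart, with a log2 change of 0.29 (SE 0.04, limma adjusted p = 0.00289).

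Pgk1 makes the first ATP of the pathway from 1,3-bisphosphoglycerate (ENSMUSG00000062070). It had 428, 428 and 413 FPKM in GSH 1 to 3, against 327, 327 and 348 in WT 1 to 3. The lowest GSH library was above the highest WT library, and the log2 change was 0.34 (SE 0.04, limma adjusted p = 0.00212). Of the 75-base windows of its GENCODE M21 transcripts, 52.8% also occur in another gene, mostly in Pgk1-rs7, and reads shared by genes could have been split or set aside in counting. The same holds for 17.8% of windows of Pkm, 10.8% of Gpi1, 4.87% of Pfkp and under 3% of those of the other 6 genes, with none for Hk2 and Pfkl.

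Pkm, pyruvate kinase, makes pyruvate and ATP from phosphoenolpyruvate, and its transcripts encode the splice forms found in muscle and in tumours, which a value per gene does not separate (ENSMUSG00000032294). It had 683, 741 and 708 FPKM in GSH 1 to 3, against 503, 539 and 553 in WT 1 to 3, the highest level of the 10 genes in both groups. The log2 change of 0.42 was also the largest of the 10 (SE 0.05, 95% interval 0.30 to 0.54, limma adjusted p = 0.0025) and lay above 98.5% of all tested genes.

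Ldha, the subunit of lactate dehydrogenase that prevails in cells producing lactate (ENSMUSG00000063229), had 515, 541 and 518 FPKM in GSH 1 to 3, against 422, 411 and 441 in WT 1 to 3. No library overlapped, and the log2 change was 0.30 (SE 0.04, limma adjusted p = 0.00308). Ldhb, the subunit of oxidative tissues, made up 0.828 ± 0.125% of the summed FPKM of Ldha and Ldhb in GSH and 0.856 ± 0.0452% in WT (SD, n = 3 each).

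The 7 called genes kept their call and direction under all 14 alternative settings, and their log2 changes were 0.25 to 0.39 between GSH 1 and the mean of WT 1 and WT 2, and 0.26 to 0.39 between GSH 2 and GSH 3 and WT 3, the sets with few and with many secretory gland transcripts. The split of all called genes moved with the scaling, from 55.7% higher in GSH as deposited to 34.1% with FPKM rescaled without mitochondrially encoded genes, where the median log2 change of the 10 genes was 0.24. Of 6 epithelial markers tested, 3 were higher in GSH and 2 lower, beside 20.6% and 16.4% of all tested genes. Krt8 was higher (435, 463 and 446 FPKM, against 343, 355 and 377 in WT, log2 0.32) and Epcam lower (290, 285 and 282 FPKM, against 365, 346 and 350 in WT, log2 -0.31). Fibroblast markers summed to 13.0 to 26.3 FPKM in GSH and 2.99 to 14.5 in WT, and red cell markers to 19.9 to 68.1 FPKM in GSH and 5.94 to 42.4 in WT, with none of either list called. Skeletal muscle markers summed to 18.1 to 23.9 FPKM in GSH, against 15.0, 66.9 and 21.5 in WT 1 to 3. Macrophage markers summed to 19.5 to 23.7 FPKM in GSH and 21.1 to 23.2 in WT, and no gene of these lists was called. T cell markers were at most 0.101 FPKM in GSH and 0.0515 in WT. The part of these cell markers in the glycolysis result was not tested.

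Promoters of 3 of the genes are shown because Slc2a1, Pgk1 and Ldha are known targets of the hypoxia-inducible factor. ACGTG is 1 form of the core bound by that factor, and the only form counted here. A further reason is that Slc2a1 was not called between GSH and WT while Pgk1 and Ldha were higher in GSH. The 250 bases before each start site are from RefSeq on GRCm38.p6, plus strand, at chr4:119108495-119108744 for Slc2a1, chrX:106186850-106187099 for Pgk1 and chr7:46845554-46845803 for Ldha, with ACGTG in capitals on either strand (CACGT on the strand shown, CACGTG where both overlap):
Slc2a1: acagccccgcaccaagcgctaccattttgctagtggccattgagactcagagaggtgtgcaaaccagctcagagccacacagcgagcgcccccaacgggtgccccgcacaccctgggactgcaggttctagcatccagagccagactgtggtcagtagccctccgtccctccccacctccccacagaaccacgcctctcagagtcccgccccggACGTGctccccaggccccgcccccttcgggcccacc
Pgk1: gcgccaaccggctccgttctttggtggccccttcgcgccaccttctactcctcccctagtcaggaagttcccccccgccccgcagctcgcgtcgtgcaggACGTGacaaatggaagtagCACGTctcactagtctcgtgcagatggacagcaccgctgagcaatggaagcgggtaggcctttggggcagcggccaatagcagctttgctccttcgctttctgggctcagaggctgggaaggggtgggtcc
Ldha: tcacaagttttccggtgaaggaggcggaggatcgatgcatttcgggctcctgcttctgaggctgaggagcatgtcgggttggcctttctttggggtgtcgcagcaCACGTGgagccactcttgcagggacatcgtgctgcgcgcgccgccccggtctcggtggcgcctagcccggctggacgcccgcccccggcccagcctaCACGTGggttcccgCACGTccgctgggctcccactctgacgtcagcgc
Slc2a1 holds 1 match, Pgk1 2 and Ldha 5, of which 4 in Ldha form 2 copies of the palindrome CACGTG, the E-box bound by Myc and its relatives. All 10 genes matched the RefSeq table, with 15 promoter windows of 300 bases (250 before and 50 after the start). ACGTG on either strand was in 8 of these 15 windows, against 19.6% of 32851 windows of all genes. By gene, 7 of 10 held it, against 21.8% of 27025 genes, and the 3 without it were Gpi1, Pfkl and Pfkp. The 27025 genes were not matched to the 10 in level, base content or number of windows. Whether the motif is enriched in the 10 genes was not tested. CACGTG was in 1 of the 10 genes, Ldha, against 8.09% of all genes. Slc2a1 held ACGTG and was not called, and Pfkl was higher in GSH and did not hold it in this window. Hk1, Aldoa, Pkm and Ldha each also had a window without it. These matches are letters in a window and not measured binding sites, and the part of the hypoxia-inducible factor in the change was not tested.

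The remaining enzymes of the pathway were taken from a list of 23 genes, of which 13 passed the filter, with a median log2 change of 0.03. Of these, 4 were higher in GSH, 2 lower and 7 not called, beside 20.6% higher and 16.4% lower among all tested genes. The 4 that were higher act between aldolase and pyruvate kinase. Tpi1, which interconverts the triose phosphates, had 180, 189 and 182 FPKM in GSH, against 137, 141 and 155 in WT (log2 0.35, limma adjusted p = 0.00395). Pgam1, phosphoglycerate mutase, had 216, 219 and 211 FPKM in GSH, against 157, 154 and 173 in WT (log2 0.42, limma adjusted p = 0.00238). Eno1, enolase, had 231, 238 and 228 FPKM in GSH, against 176, 176 and 188 in WT (log2 0.37, limma adjusted p = 0.00195). Every GSH library lay above every WT library for each of the 3, as for 29% of all tested genes. Of the windows of Pgam1 34.9%, and of those of Eno1 23.0%, occur in other genes. Bpgm, which makes 2,3-bisphosphoglycerate, was higher at a low level (4.45, 4.53 and 4.15 FPKM in GSH, against 3.62, 3.31 and 3.46 in WT, log2 0.27). The ADP-dependent glucokinase Adpgk was lower, at 17.6, 17.3 and 17.7 FPKM in GSH, against 21.1, 19.3 and 19.2 in WT (log2 -0.17). Gapdhs, known as the glyceraldehyde-3-phosphate dehydrogenase of sperm, was also lower, at 1.42, 1.58 and 1.34 FPKM in GSH and 2.26, 2.36 and 1.97 in WT (log2 -0.38). Gapdh itself was listed at 27.4, 29.3 and 21.5 FPKM in GSH and 27.4, 27.5 and 27.5 in WT (log2 -0.09, limma adjusted p = 0.546). For Gapdh 22.6% of the 75-base windows occur in other genes, 121 of them, and the effect of this on its level was not tested.

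**Figure D3:**
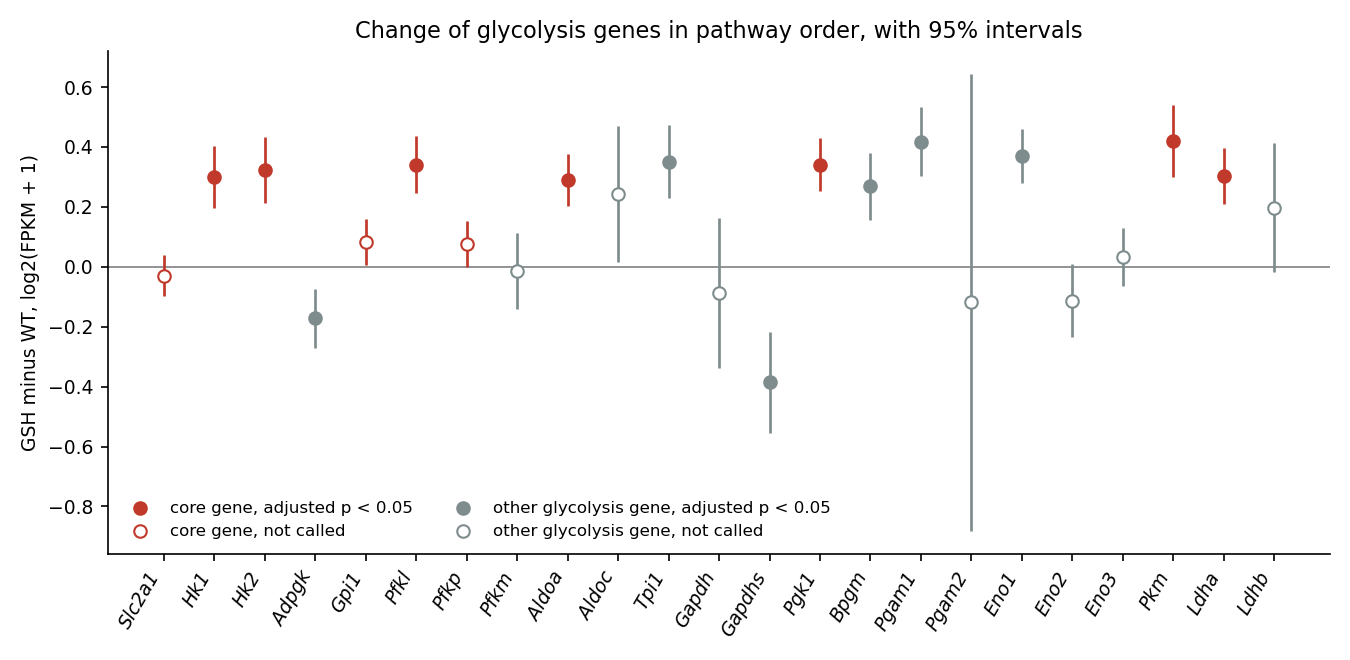
Log2 change of GSH against WT on the log2(FPKM + 1) scale, with 95% intervals, for the 10 genes and the other tested genes of the pathway. Pkm, Pgam1 and Eno1 lie at 0.42, 0.42 and 0.37, and Slc2a1, Gpi1 and Pfkp near 0.

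Of 14 genes that control glycolysis, 12 were tested, with a median log2 of 0.01. In GSH 3 were higher and none lower, beside 20.6% higher and 16.4% lower among all tested genes. Pfkfb3, which makes the activator of phosphofructokinase, had 4.44, 4.69 and 4.62 FPKM in GSH, against 3.77, 3.74 and 3.69 in WT (log2 0.24). Pdk3, which inhibits pyruvate dehydrogenase, had 19.0, 17.9 and 17.7 FPKM in GSH, against 13.6, 15.4 and 14.9 in WT (log2 0.30). Hif1a, the oxygen-regulated subunit of the hypoxia-inducible factor, had 18.1, 17.0 and 17.5 FPKM in GSH, against 15.1, 15.5 and 14.4 in WT (log2 0.21, limma adjusted p = 0.00781). These are levels of transcript, and the hypoxia-inducible factor is known to be set largely by the stability of its protein. Myc was not called (log2 0.05, limma adjusted p = 0.357).

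Of 13 genes for the fate of pyruvate and lactate, 11 were tested, with a median log2 of 0.03. In GSH 2 were higher and 1 was lower, beside 20.6% higher and 16.4% lower among all tested genes. The subunits of pyruvate dehydrogenase Pdha1 (35.8, 37.5 and 35.3 FPKM in GSH, against 27.9, 29.5 and 28.9 in WT, log2 0.32) and Pdhx (6.27, 6.02 and 6.29 in GSH, against 5.61, 5.19 and 5.54 in WT, log2 0.16) were higher. Slc16a1, the lactate transporter MCT1, was lower, at 122, 113 and 122 FPKM in GSH and 140, 128 and 133 in WT (log2 -0.17, limma adjusted p = 0.0313). Of 6 gluconeogenic genes, 2 were tested and both were lower in GSH: G6pc3, a glucose-6-phosphatase (log2 -0.16), and Pck2, the mitochondrial phosphoenolpyruvate carboxykinase (log2 -0.14).

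In GSH the order of the levels was Pkm, Ldha, Pgk1, Aldoa, Slc2a1, Pfkl, Gpi1, Hk2, Hk1 and Pfkp, in FPKM, where Slc2a1 did not separate from Pfkl, nor Pfkl from Gpi1, beyond the ranges of their libraries. In WT the order was the same except that Gpi1 stood above Pfkl, and each neighbour lay outside the other's range. In Cas9 the order was Aldoa, Pkm, Pgk1, Gpi1, Ldha, Slc2a1, Pfkl, Hk1, Pfkp and Hk2, with separate ranges only for Ldha and Slc2a1, Pfkl and Hk1, and Hk1 and Pfkp. Ctrl 3 had that order with Pfkl above Slc2a1. The orders of the tables cannot be set against each other, because the lengths behind FPKM differ between them: 3310 bases for Ldha in the GSH and WT table and 5342 in the Cas9 and Ctrl table, and 13401 and 4475 bases for Pfkp. The coefficient of variation over the 3 libraries was 1.25% to 4.80% for the 10 genes in GSH and 0.687% to 4.91% in WT, beside medians over tested genes of 4.51% and 4.35%.

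By likeness over the 6 GSH and WT libraries, the smallest distance of centred log2 values among 10388 candidate genes, Helb and Fkbp9 were nearest to Slc2a1, Rps12 and Enoph1 to Hk2, and Rnh1 and Psmd2 to Ldha. Rnh1 had 36.8, 39.2 and 37.1 FPKM in the GSH libraries, against 29.9, 29.3 and 31.3 FPKM in the WT libraries.

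Between Cas9 and Ctrl none of the 10 genes was called, and their coefficient of variation over the 3 Cas9 libraries was 8.39% to 45.3%, beside a median of 12.2% over tested genes. Of all 11407 genes tested, 0% were called with limma at an adjusted p of 0.05, 1.84% passed an unadjusted p of 0.05, and limma-voom on recovered reads called 0. The 10 genes held 0 past the unadjusted threshold. Their median log2 change was 0.15, beside -0.01 for all genes tested, and it was 0.076 with FPKM rescaled to a common sum (-0.080 for all genes) and 0.098 without Cas9 2. Ctrl 3 is the single Ctrl library, so the spread comes from Cas9 libraries alone and Ctrl is assumed to vary like them.

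Slc2a1 had 48.4, 97.7 and 132 FPKM in Cas9 1 to 3, against 48.5 FPKM in Ctrl 3. Cas9 1 was level with Ctrl 3 while Cas9 2 and Cas9 3 were higher, so the log2 change of 0.81 had a 95% interval of -0.66 to 2.27 and was 1.21 without Cas9 1 and 0.50 without Cas9 3. The coefficient of variation of 45.3% in Cas9 lay above that of 94.0% of tested genes. Macrophage markers summed to 2183, 1945 and 989 FPKM in Cas9 1 to 3, against 2123 in Ctrl 3, and neutrophil markers to 228, 180 and 682 FPKM in Cas9, against 140 in Ctrl 3. The epithelial markers summed to 1563, 2056 and 2640 FPKM in Cas9, against 2071 in Ctrl 3. In such bulk samples fewer cells of a type and less RNA per cell cannot be told apart, and the part of the cell mixture in these values was not tested.

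**Figure D4:**
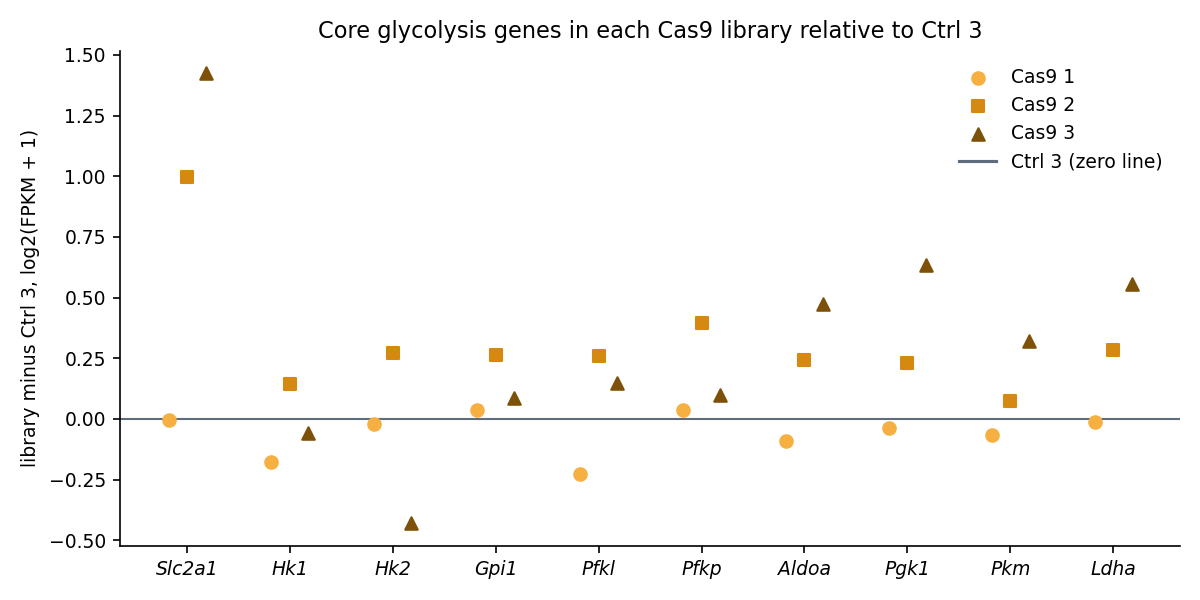
Log2 ratio of each Cas9 library to Ctrl 3 for the 10 glycolysis genes. Cas9 1 lies at -0.23 to 0.04, Cas9 2 at 0.07 to 1.00 and Cas9 3 at -0.43 to 1.42, with Slc2a1 the highest in the last.

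The hexokinases had 34.9, 43.8 and 37.9 FPKM for Hk1 in Cas9 1 to 3, against 39.5 in Ctrl 3, and 18.3, 22.6 and 13.5 for Hk2, against 18.5 in Ctrl 3. Ctrl 3 lay inside the Cas9 range for both. Hk2 made up 34.4%, 34.0% and 26.3% of the summed FPKM of Hk1 and Hk2 in Cas9, against 31.9% in Ctrl 3. Hk3 was measured here at 12.7, 10.2 and 8.38 FPKM in Cas9, against 11.0 in Ctrl 3, beside the leukocyte markers.

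Gpi1 (206, 241 and 213 FPKM in Cas9, against 200.4 in Ctrl 3) and Pfkp (21.7, 28.0 and 22.6 in Cas9, against 21.1 in Ctrl 3) were above Ctrl 3 in every Cas9 library, as were 20.1% of all tested genes. Pfkl had 66.9, 94.3 and 87.1 FPKM in Cas9, against 78.6 in Ctrl 3. Its Cas9 libraries fell on both sides of Ctrl 3. Aldoa (365, 461 and 541 FPKM in Cas9, against 389.5 in Ctrl 3), Pgk1 (234, 282 and 373 in Cas9, against 239.98 in Ctrl 3) and Pkm (350.4, 386 and 459 in Cas9, against 367 in Ctrl 3) had the same form, lowest in Cas9 1 and highest in Cas9 3. Ldha, at 158, 194 and 235 FPKM in Cas9 and 159.5 in Ctrl 3, did too. Their log2 changes were 0.11 to 0.28, with 95% intervals that span 0, such as -0.37 to 0.93 for Ldha. By library, 2 of the 10 genes were above Ctrl 3 in Cas9 1, 10 in Cas9 2 and 8 in Cas9 3, where 50.6%, 44.4% and 49.4% of all tested genes were.

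Of the other lists no gene was called between Cas9 and Ctrl. Pfkfb3 had 9.22, 10.3 and 9.99 FPKM in Cas9, against 6.08 in Ctrl 3 (log2 0.61, limma unadjusted p = 0.0109). It was the only one of the 12 tested genes that control glycolysis past an unadjusted p of 0.05. Pdk1, a kinase that inhibits pyruvate dehydrogenase, had 7.37, 9.14 and 10.1 FPKM in Cas9, against 6.53 in Ctrl 3. Slc16a3, the lactate exporter MCT4, was at 13.3, 22.9 and 14.6 FPKM in Cas9, against 11.0 in Ctrl 3, while GSH and WT libraries had at most 0.14 FPKM of it.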

How the data were processed

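RNA sequencing values of 10 libraries (3 GSH, 3 WT, 3 Cas9 and 1 Ctrl) of 12 labelled samples were used. Neither labels nor headers state a unit, and the values the authors deposited were taken as FPKM from their steps, which gave whole reads with integer library totals. Per the submitters' processing notes, tools included HTSeq 0.6.0, HISAT2 2 and Bowtie2 2.2.3, with build mm8; whether counting used strand is not given in the sources used here. Some identifiers are younger than mm8, so coordinates are given only for RefSeq promoters. Symbols matched 30190 of 30803 identifiers. Of 2 identifiers named Aldoa, the one with the higher mean was used.

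The tables were normalised separately, so limma 3.58.1 (R 4.3.3; lmFit, eBayes with trend) was run within each on log2(FPKM + 1), group as the only term, two-sided, over genes with a mean of 1 FPKM or more, with Benjamini-Hochberg adjustment at 0.05 over all tested genes. Changes are tested on that scale and understate those of low genes. Cas9 against Ctrl has 2 residual degrees of freedom. The fits were run on simulated data with 1 small spread set for both tables. The Cas9 libraries varied more (median coefficient of variation 12.2%), so that run does not bear on the Cas9 fit. Replicates are numbered in the titles, but whether they were grown separately is not given, and p-values then reflect only variation among these samples, which may be technical. Recovered reads served for depth, shares of reads and limma-voom.

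Members and lists (other glycolysis, control, pyruvate and lactate, gluconeogenesis, markers) were chosen with earlier results of these data known. Named genes are the members, the called genes of these lists, genes close to a member by role and the 2 nearest in likeness to Slc2a1, Hk2 and Ldha. Alternatives were another pseudocount, no filter, 3 other scalings, a replicate block, a term for secretory gland transcripts, limma-voom and leaving out each library.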

Additional observations from a re-analysis of the deposited data

How the results depend on the processing

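For GSH against WT, 139 of 140 values of the 10 genes under 14 alternatives had the direction and call given above, and the other was Gpi1 without GSH 1. Leaving out 1 library gave 2998 to 3671 called genes against 4547, the lowest without WT 1, and no filter gave 3086. Of called genes, 55.7% were higher as deposited, 34.1% with FPKM rescaled without mitochondrially encoded genes, and 42.5% with reads so rescaled, an alternative chosen after seeing the data. The replicate block gave 3867 called genes with the same 7 of the 10 higher. Deviations of each gene from its group mean correlated at 0.479, -0.107 and 0.209 between same-numbered GSH and WT libraries. The numbers were therefore not taken as pairs, and the deviations of GSH 2 correlated best with those of WT 3. Centring on a group mean forces correlations of both signs, so these values do not compare whole libraries. No paired analysis was possible because Cas9 and Ctrl share 1 replicate number. The Hk2 share, GSH minus WT, was -0.151 to 1.00 points on leaving out 1 library (-0.151 without GSH 3, -0.143 without WT 2), and the Pfkp share was -2.81 points in reads. For Cas9 against Ctrl, 86 of 90 values had the same direction; Hk1 was -0.12 to 0.043, Hk2 -0.22 to 0.13 and Pfkl -0.040 to 0.20 on leaving out 1 Cas9 library, and Pfkl was -0.017 with FPKM rescaled. For these reversals the cause was not tested. That table holds no mitochondrially encoded genes, so rescaled reads change nothing there, and Ctrl 3 cannot be left out.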

Other observations

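A second identifier with the symbol Aldoa, ENSMUSG00000114515, had 3.94, 4.57 and 2.97 FPKM in GSH libraries, against 3.31, 3.64 and 4.14 FPKM in WT libraries, at overlapping levels.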
